A study of Homo sapiens with 2 samples.

Results

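Accessible chromatin was examined at 7 genes that encode Polycomb proteins and other histone-modifying enzymes: EZH2, EED, SUZ12, KMT2D, NSD2 (older name WHSC1), CREBBP and EP300. Members were all ATAC-seq peaks that overlapped a fixed hg19 span around each gene, a rule that reads positions only, although the genes and spans were chosen with earlier results of these data known. They numbered 29 of 41540 peaks in the SMARCA4 knockdown library and 28 of 55124 peaks in the control library, counted on chromosomes 1 to 22 and X. ATAC-seq uses a transposase to insert sequencing adapters into open chromatin, and a peak is a stretch where more reads pile up than in its surroundings. Both libraries came from Z-138, an established human mantle cell lymphoma line. The first carried an shRNA against SMARCA4, and the second carried a control shRNA. Both were cultured with doxycycline; whether the cells were 1 clone or a pool was not given in the sources used here. Neither label names ibrutinib or venetoclax, the drugs in the series' design. There was 1 library per group, so no test between the groups was possible. Any difference may be one between these libraries and not between the conditions. The lists measure neither SMARCA4 RNA nor protein, so the knockdown itself was not checked, and no list of marker genes could be read at hg19 positions to check the cell type.

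Sequencing depth, worked out from the deposited fold and p-values with a genome of 2.7 Gb assumed, came to 9.76 M reads or fragments for the knockdown and 6.89 M for the control library. If the share of reads in peaks was the same, equal accessibility would therefore give 1.34 times as many summit reads in the knockdown library. This takes the read extension lengths into account, which were taken as the narrowest peak of each list, 89 bp (knockdown) and 94 bp (control). They were not given in the sources used here, and the depths rest on them too. The share of reads in peaks was not measured, and over all shared peaks of the genome the summed summit reads had a ratio of 1.1. A ratio below 1.34 alone therefore does not show lower accessibility. The summit reads of a peak are the reads stacked at its highest point. The lowest listed summit had 4 reads in the knockdown and 3 reads in the control library. A stretch outside a list lay below the caller's limit and was not shown to be closed.

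SMARCA4, also called BRG1, is an ATPase that drives the nucleosome-moving SWI/SNF complexes. Polycomb repressive complex PRC2 places a silencing methyl mark on histone H3, and SWI/SNF and Polycomb complexes are known to act against each other at many genes. EZH2 is the methyltransferase of PRC2, EED reads the mark and stimulates the enzyme, and SUZ12 holds the complex together. KMT2D methylates histone H3 at enhancers, and NSD2 places a methyl mark over transcribed gene bodies. CREBBP and EP300 are paralogous acetyltransferases that act as coactivators. KMT2D, NSD2, CREBBP and EP300 are all known as genes mutated in B-cell lymphomas, and EZH2 is known for its role in germinal-centre B cells. An ATAC-seq peak in such a span describes DNA in or around the gene, not the activity of its protein. The spans reach beyond the genes, so a peak toward the end of a span may belong to a neighbouring gene.

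The RefSeq promoters of 5 of the genes are printed to show the kind of sequence at their starts: the 3 core subunits of PRC2, and the acetyltransferase pair, whose spans held 4 (CREBBP) and 0 (EP300) unmatched control peaks. Each runs 5′ to 3′ from 250 bases before to 50 bases after the annotated start in build GRCh38.p14. All 7 genes had an entry; EZH2 and CREBBP had several, of which the first is shown. Capitals mark matches on either strand to CCAAT (the CCAAT box bound by NF-Y), GGGCGG (the GC box of SP factors), TTTGGCGC (an E2F site), TGACGT (the core of a CRE), CCGGAA (the core of ETS sites) or TATAAA (the TATA box). The sequences lie at chr7:148884242-148884541 (minus strand), chr11:86244503-86244802 (plus strand), chr17:31936757-31937056 (plus strand), chr16:3880664-3880963 (minus strand) and chr22:41092342-41092641 (plus strand). These GRCh38.p14 positions cannot be set against the hg19 positions of the peaks, so it is not stated which peak covers which promoter. Peak sequences are not printed, because an hg19 genome was not used here.
EZH2: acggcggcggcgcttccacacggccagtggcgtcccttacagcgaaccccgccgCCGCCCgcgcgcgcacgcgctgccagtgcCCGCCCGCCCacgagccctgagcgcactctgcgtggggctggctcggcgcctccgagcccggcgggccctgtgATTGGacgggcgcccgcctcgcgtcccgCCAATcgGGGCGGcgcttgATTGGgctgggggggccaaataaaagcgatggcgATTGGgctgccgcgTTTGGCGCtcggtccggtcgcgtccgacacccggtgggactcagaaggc
EED: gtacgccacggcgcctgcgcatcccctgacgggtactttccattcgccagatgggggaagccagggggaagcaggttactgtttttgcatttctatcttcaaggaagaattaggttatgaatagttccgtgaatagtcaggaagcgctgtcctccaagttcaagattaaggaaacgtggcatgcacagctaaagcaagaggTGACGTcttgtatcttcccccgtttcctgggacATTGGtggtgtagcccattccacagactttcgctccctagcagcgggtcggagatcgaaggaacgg
SUZ12: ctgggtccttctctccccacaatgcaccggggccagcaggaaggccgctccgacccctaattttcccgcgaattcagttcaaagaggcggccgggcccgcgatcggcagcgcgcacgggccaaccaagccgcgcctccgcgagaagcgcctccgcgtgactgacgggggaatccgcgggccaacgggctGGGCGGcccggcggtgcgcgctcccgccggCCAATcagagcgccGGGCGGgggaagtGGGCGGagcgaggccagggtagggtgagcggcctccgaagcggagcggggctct
CREBBP: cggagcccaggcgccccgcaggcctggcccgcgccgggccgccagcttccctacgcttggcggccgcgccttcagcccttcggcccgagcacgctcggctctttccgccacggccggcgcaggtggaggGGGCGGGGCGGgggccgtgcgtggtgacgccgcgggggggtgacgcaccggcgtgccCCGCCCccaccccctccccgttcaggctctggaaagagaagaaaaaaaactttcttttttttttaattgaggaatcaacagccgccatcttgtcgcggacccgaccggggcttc
EP300: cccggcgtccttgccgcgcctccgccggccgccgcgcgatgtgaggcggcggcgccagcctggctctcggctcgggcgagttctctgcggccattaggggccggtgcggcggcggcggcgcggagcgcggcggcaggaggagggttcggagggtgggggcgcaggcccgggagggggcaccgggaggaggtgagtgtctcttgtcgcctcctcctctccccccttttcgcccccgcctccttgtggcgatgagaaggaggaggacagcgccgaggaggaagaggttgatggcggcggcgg

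The printed EZH2 promoter held 4 CCAAT boxes, 4 GC boxes and 1 E2F site, and 2 of its GC boxes share 2 bases. The second EZH2 entry, not printed, held 1 GC box and 1 CRE core but no CCAAT box and no E2F site. The EED promoter held 1 CCAAT box and 1 CRE core, and the SUZ12 promoter held 1 CCAAT box and 3 GC boxes. The printed CREBBP promoter held 3 GC boxes, a pair of which shares 1 base, and the second CREBBP entry held 4 GC boxes. The EP300 promoter held none of the 6 motifs. Among 34796 RefSeq promoters of the same length, 34.6% held a CCAAT box, 44.9% a GC box, 0.652% this E2F site, 7.97% a CRE core, 17.2% the ETS core and 11.6% a TATA box. The G and C content of the printed promoters was 74.7% for EZH2, 52.3% for EED, 73.0% for SUZ12, 70.3% for CREBBP and 75.3% for EP300, beside a median of 58.7% over all promoters. EED was thus the only one of the 5 below that median. The promoters held 46, 16, 40, 36 and 40 CpG dinucleotides in the same order, with a median of 14 over all promoters. A match is a run of letters and not a shown binding site.

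Across the 7 spans, which together cover 910 kb, the peak numbers of the libraries were nearly equal. The knockdown list held 29 peaks over 7474 bp and the control list 28 peaks over 7295 bp, so the knockdown covered 102% of the control length. Over all chromosomes the knockdown list held 0.754 times as many peaks and 82.0% of the covered length. No interval was computed for these counts, so their difference from the genome was not tested. The CREBBP span had 2 knockdown and 6 control peaks. Those of EZH2, EED, SUZ12 and KMT2D had more knockdown peaks, and those of NSD2 and EP300 equal numbers. Joined within each list where less than 1 kb apart, the peaks made 21 knockdown and 24 control sites, beside 36626 and 49355 over all chromosomes. The spans were denser in peaks than the genome, with 3.19 peaks per 100 kb in the knockdown list against 1.37 over the chromosomes up to their last peaks, and 3.08 in the control list against 1.82. A control partner, meaning a control peak sharing at least 1 bp, was found for 23 of 29 knockdown peaks, or 79.3% (exact binomial 95% interval 60.3 to 92.0%), beside 79.4% of all knockdown peaks. A knockdown partner was found for 21 of 28 control peaks, or 75.0% (55.1 to 89.3%), beside 60.5% of all control peaks. That interval includes the share of all control peaks, and it covers counting error over peaks only. Neighbouring peaks are not independent, and amplified reads are not independent molecules.

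Wide peaks made up a larger share of the members than of all peaks. Spans of other genes were not compared, so neither this nor the peak density is shown to be particular to these genes. A width of at least 300 bp was reached by 11 of 29 knockdown peaks (37.9%, beside 22.0% of all knockdown peaks) and by 10 of 28 control peaks (35.7%, beside 17.5%). The authors' fold enrichment is the summit over the expected background of the same library, with 1 read added to each. It is thus smaller than the plain ratio of reads, most so where the background is low. Folds of libraries that differ in depth are therefore not on exactly the same scale. The median fold was 6.67 in the knockdown spans and 6.13 in the control spans. These lie slightly under the medians of all peaks, 7.04 in the knockdown and 6.45 in the control list. A fold of at least 10 was reached by 5 of 29 knockdown peaks, beside 23.1% of that list, and by 5 of 28 control peaks, beside 18.7%. They came from the spans of EZH2, KMT2D and NSD2 in both libraries and from that of SUZ12 in the control. The spans of EED, CREBBP and EP300 had none in either. In 6 of 7 spans the peak with most summit reads lay on the 5′ side of the midpoint of the span, in both libraries, by the strands given in RefSeq. The exception was the CREBBP span, where the control maximum lay on the 3′ side and the knockdown had equal summits at both ends. In the KMT2D and NSD2 spans the highest knockdown summit lay only 7.73% (KMT2D) and 5.03% (NSD2) into the span from its 5′ end. It may therefore belong to a neighbouring gene.

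**Figure D1:**
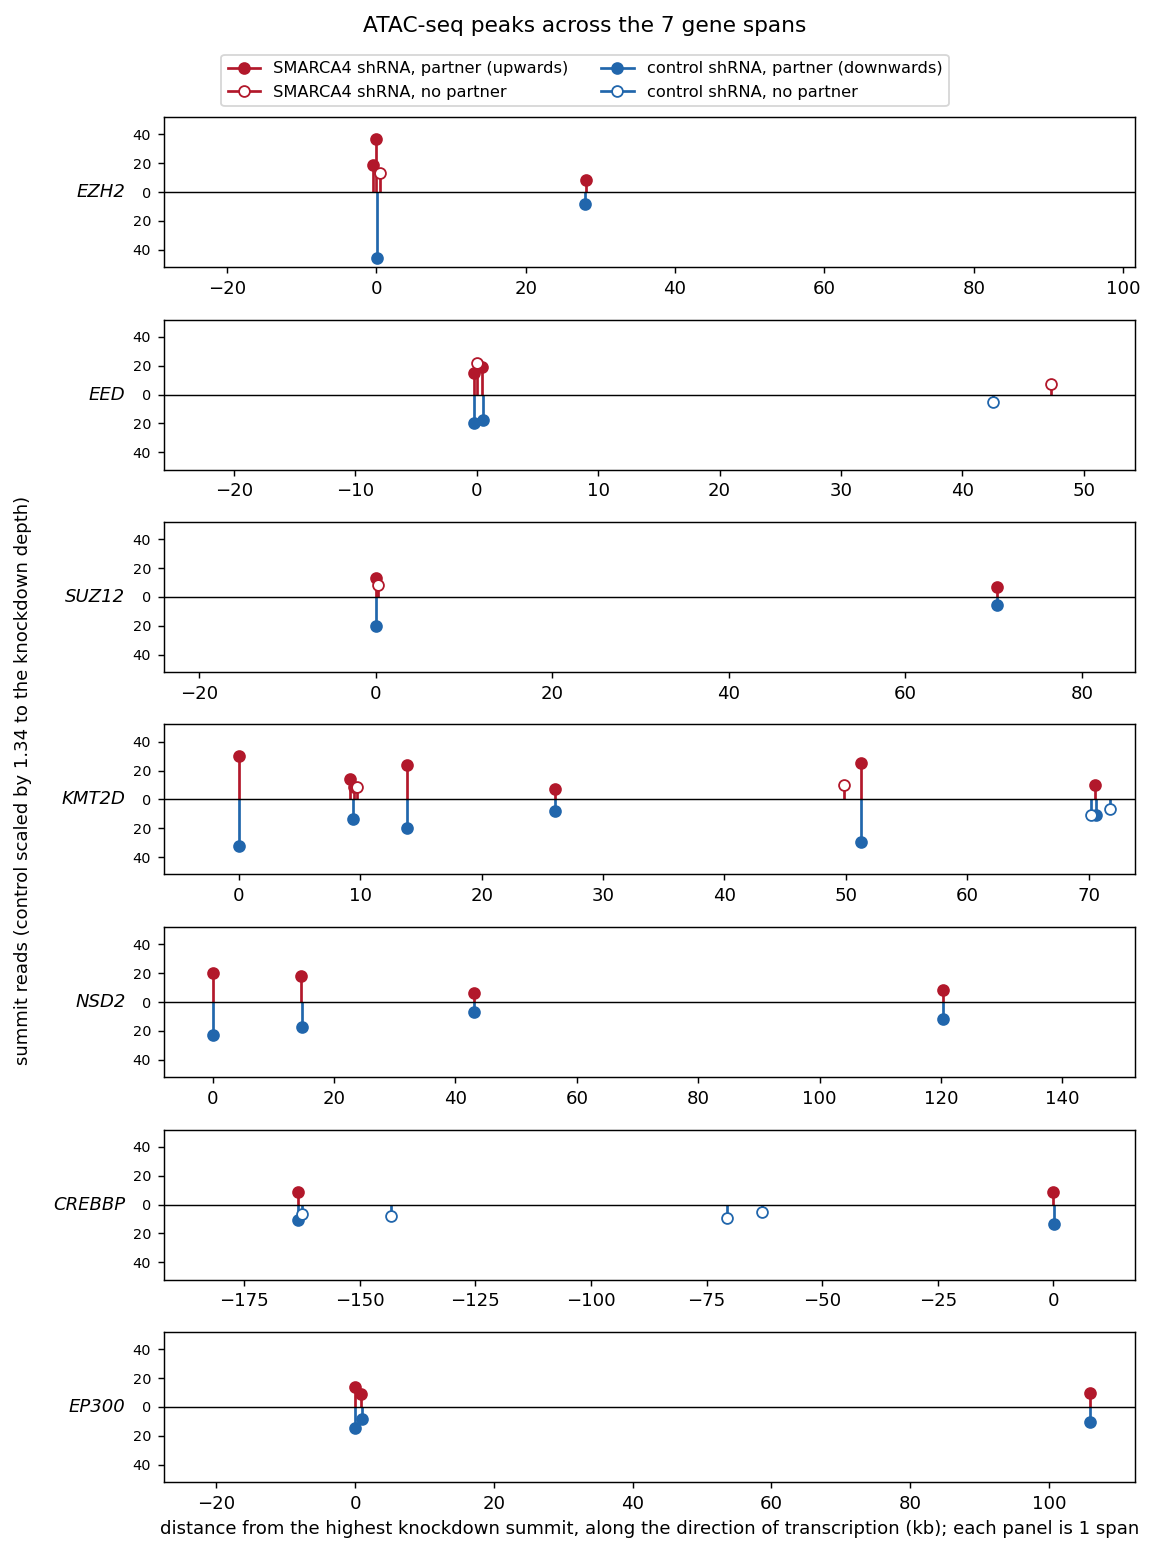
Positions and heights of all 29 SMARCA4 shRNA peaks (red, upwards) and 28 control shRNA peaks (blue, downwards) in the 7 spans. The horizontal axis is the distance in kb from the highest knockdown summit along the direction of transcription (the higher fold where summits were equal), and the vertical axis is summit reads, with control reads multiplied by 1.34; open circles are peaks without a partner. KMT2D had the most peaks in both libraries, and the middle of the CREBBP span held open control circles only.

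The EZH2 span (chromosome 7, 148.48 to 148.61 Mb) held the peak with most summit reads of all 7 spans. In the knockdown library the main peak lay at chr7:148581310-148581785 with 37 summit reads (exact Poisson 95% interval 26.1 to 51.0) and a fold of 11.2. The control peak at chr7:148581320-148581960 had 34 summit reads (23.5 to 47.5) and a fold of 11.9. Their ratio was 1.09, where depth gives 1.34, and the depth-scaled log2 ratio of knockdown to control was -0.30 with a 95% counting interval of -1.01 to 0.41. The knockdown list divided this site into 3 peaks over 824 bp, and the control list had 1 peak of 641 bp. The flanking knockdown peaks had 13 reads at chr7:148581011-148581190, without a control partner, and 19 reads at chr7:148581892-148582059, which touched the same control peak. The control peak began 129 bp from the unmatched one. The only other EZH2 pair was narrow and weak, with 8 reads in the knockdown and 6 reads in the control library at chr7:148553516-148553604 and chr7:148553527-148553620.

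The EED span (chromosome 11, 85.93 to 86.01 Mb) had 1 cluster of peaks and 2 weak peaks further on. In the cluster, the knockdown list had peaks of 15, 22 and 19 summit reads in order of position, and the control list had 15 and 13 reads. The first pair, at chr11:85955457-85955625 in the knockdown, thus had equal reads in both libraries, which is a depth-scaled log2 ratio of -0.42 (-1.56 to 0.71), and -0.65 with the reads of the 10 kb around it as the scale. The last pair, at chr11:85956020-85956389, had a log2 ratio of 0.12 (-0.97 to 1.26), and -0.12 with the reads of the surrounding 10 kb as the scale, which turns its direction. Between them lay the strongest unmatched knockdown peak of the 7 spans, at chr11:85955700-85955890 with a fold of 9.67 and 22 reads. It lay 30 bp from the nearest control peak. The control peaks of this cluster were 359 bp apart, so the control list had no peak between them. The 2 weak peaks of the span were 4.67 kb apart, 7 reads at chr11:86003020-86003118 in the knockdown and 4 reads at chr11:85998256-85998349 in the control, and neither had a partner.

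The SUZ12 span (chromosome 17, 30.24 to 30.35 Mb) had a pair toward each of its ends. The stronger pair, at chr17:30263762-30264063 in the knockdown and chr17:30263806-30264129 in the control, had 13 summit reads and a fold of 9.87 in the knockdown library, against 15 reads and 11.0 in the control. It was the pair with the lowest depth-scaled ratio of all 7 spans, at a log2 of -0.63 (-1.82 to 0.54). The reads of the surrounding 10 kb were also low for the depth, 47 in the knockdown against 48 in the control library, and scaled to them the log2 ratio was -0.10. A second knockdown peak of 8 reads at chr17:30264200-30264306 lay 70 bp from the control peak, without overlap. The weaker pair, at chr17:30334256-30334458 in the knockdown, had 7 reads against 4 reads in the control, a log2 of 0.38 (-1.59 to 2.60). A near-identical partial copy of SUZ12 is known on the same chromosome, so the reads counted at SUZ12 are uncertain where the copies are alike, and its part in these values was not tested. The handling of reads that match both was not given in the sources used here.

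Together the PRC2 spans held 11 knockdown and 7 control peaks, over 2354 bp in the knockdown and 1890 bp in the control. A partner was found for 7 of the 11 knockdown peaks (63.6%, beside 79.4% of all knockdown peaks) and 6 of the 7 control peaks (85.7%, beside 60.5% of all control peaks). The 95% intervals, 30.8 to 89.1% for the knockdown and 42.1 to 99.6% for the control peaks, both include the share of all peaks. Of the 4 unmatched knockdown peaks, 3 lay within 129 bp of a control peak. When peaks of both lists less than 1 kb apart were joined to sites, 5 PRC2 sites were present in both libraries, 1 in the knockdown only and 1 in the control only. Over all chromosomes 55.4% of the joined sites were present in both libraries, 10.8% in the knockdown only and 33.8% in the control only.

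KMT2D had the densest span (chromosome 12, 49.39 to 49.47 Mb), with 9 knockdown and 8 control peaks in 80 kb, or 11.2 per 100 kb in the knockdown and 10.0 in the control. PRKAG1 and RHEBL1 are the next protein-coding genes on either side in RefSeq, so some of these peaks may belong to them. The strongest pair lay toward the 5′ side of the span, at chr12:49463488-49464019 in the knockdown and chr12:49463505-49464030 in the control, with 30 summit reads and a fold of 15.0 in the knockdown, against 24 reads and 14.2 in the control. These folds were within the top 3.98% of the knockdown list and the top 4.53% of the control list. The pair at chr12:49412298-49412729 and chr12:49412450-49412962 had 25 knockdown and 22 control reads. The pair at chr12:49449883-49450066 and chr12:49449883-49450021 had 24 knockdown and 15 control reads, and its log2 of 0.25 (-0.74 to 1.29) was the highest depth-scaled ratio among pairs with at least 8 control reads. With the reads of the surrounding 10 kb as the scale, the log2 of this pair was 0.05. The 3 depth-scaled ratios of these pairs, with the others at -0.10 and -0.24, all had intervals that include 0.

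Weaker KMT2D sites were listed in both libraries as well, with small differences in how they were divided. The site from 49454022 to 49454844 on chromosome 12 held 3 knockdown peaks of 9, 9 and 14 reads over 603 bp, and 1 control peak of 10 reads over 373 bp. The first of these knockdown peaks, at chr12:49454022-49454211, had no partner and lay 178 bp from the control peak. At the far 3′ side the reverse held: the knockdown list had 1 peak of 10 reads at chr12:49393168-49393285, and the control list had peaks of 8 and 8 reads at chr12:49393179-49393307 and chr12:49393438-49393713. The second of these control peaks lay 152 bp from the knockdown peak and had no partner. A narrow pair of 7 knockdown and 6 control reads lay at chr12:49437727-49437817 and chr12:49437726-49437867. The remaining unmatched KMT2D peaks lay further from the other library's peaks. They were a knockdown peak of 10 reads at chr12:49413898-49414012, 935 bp from a control peak, and a control peak of 5 reads at chr12:49392058-49392151, 1016 bp from a knockdown peak.

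The NSD2 span (chromosome 4, 1.85 to 2.01 Mb) held 4 knockdown and 4 control peaks, and every peak had a partner. The strongest pair lay at chr4:1857867-1858190 in the knockdown and chr4:1857736-1858187 in the control, with 20 summit reads and a fold of 10.8 in the knockdown, against 17 reads and 10.9 in the control. It lay 5.03% into the span from its left end, the side on which LETM1 is the next gene in RefSeq. The second pair had 18 knockdown and 13 control reads, and here the knockdown peak was the widest member of either list: 806 bp at chr4:1872258-1873063, against 296 bp at chr4:1872489-1872784 in the control. Their widths thus differed by 510 bp, while their summit reads had a depth-scaled log2 ratio of 0.05 (-1.06 to 1.20). The other pairs were weak. At chr4:1978305-1978411 and chr4:1978271-1978540 there were 8 knockdown and 9 control reads, a log2 of -0.59 (-2.17 to 0.95), and at chr4:1901089-1901177 and chr4:1901040-1901183 there were 6 knockdown and 5 control reads.

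CREBBP (chromosome 16, 3.75 to 3.96 Mb) was the only span of the 7 with fewer knockdown than control peaks. The knockdown list held 2 peaks over 674 bp and the control list 6 peaks over 1228 bp, so the knockdown covered 54.9% of the control length in 210 kb. The 2 shared sites lay toward the ends of the span, on the sides where TRAP1 and ADCY9 are the next genes in RefSeq, and whether they belong to CREBBP was not determined. At chr16:3767464-3767698 and chr16:3767341-3767703 the summits had 9 knockdown and 10 control reads, a depth-scaled log2 of -0.58 (-2.05 to 0.88). At chr16:3930668-3931106 and chr16:3930672-3930962, on the 5′ side, they had 9 knockdown and 8 control reads, a log2 of -0.25 (-1.80 to 1.32). The folds of these 4 peaks were between 6.24 and 8.10.

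The 4 control peaks of CREBBP without a knockdown partner were all below the medians of the control list, a fold of 6.45 and 8 summit reads. They lay at chr16:3838049-3838260 with 7 reads and a fold of 6.02, at chr16:3910841-3910964 with 6 reads and a fold of 5.65, at chr16:3930027-3930120 with 5 reads and a fold of 4.19, and at chr16:3830684-3830827 with 4 reads and a fold of 4.03. Scaled to the knockdown depth these summits correspond to 9.39, 8.05, 6.71 and 5.37 reads. The lowest summit that entered the knockdown list at its lowest background, 0.322 reads, had 4 reads. More reads are needed at a higher background. The knockdown peak nearest to chr16:3930027-3930120, for example, had a background of 0.498 reads. The 4 control summits were also selected by passing the limit of the control list, so whether the knockdown should list these sites was not tested. The nearest knockdown peaks were 70.3 kb, 19.7 kb, 547 bp and 63.0 kb away. Among all control peaks, 60.5% had a partner, and those without one had a median fold of 4.95. With 6 peaks, the CREBBP share of 33.3% has an interval of 4.33 to 77.7%, which includes the share of all control peaks.

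The EP300 span (chromosome 22, 41.46 to 41.60 Mb) held 3 peaks in each library, and all had a partner. At chr22:41487472-41487956 and chr22:41487499-41487839 the summits had 14 reads and a fold of 7.72 in the knockdown, against 11 reads and 7.16 in the control. Less than a kilobase further on, chr22:41488424-41488638 and chr22:41488539-41488659 had 9 knockdown and 6 control reads. Near the 3′ end of the span, chr22:41593375-41593719 and chr22:41593374-41593734 had 10 knockdown and 8 control reads, on the side where L3MBTL2 is the next gene in RefSeq. The depth-scaled log2 ratios were -0.08, 0.16 and -0.10. Knockdown peaks covered 1045 bp and control peaks 823 bp, so covered length was 127% of the control at EP300 and 54.9% at CREBBP. Whether the 2 genes differ in their response was not tested, since 1 library per group allows no test.

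**Figure D2:**
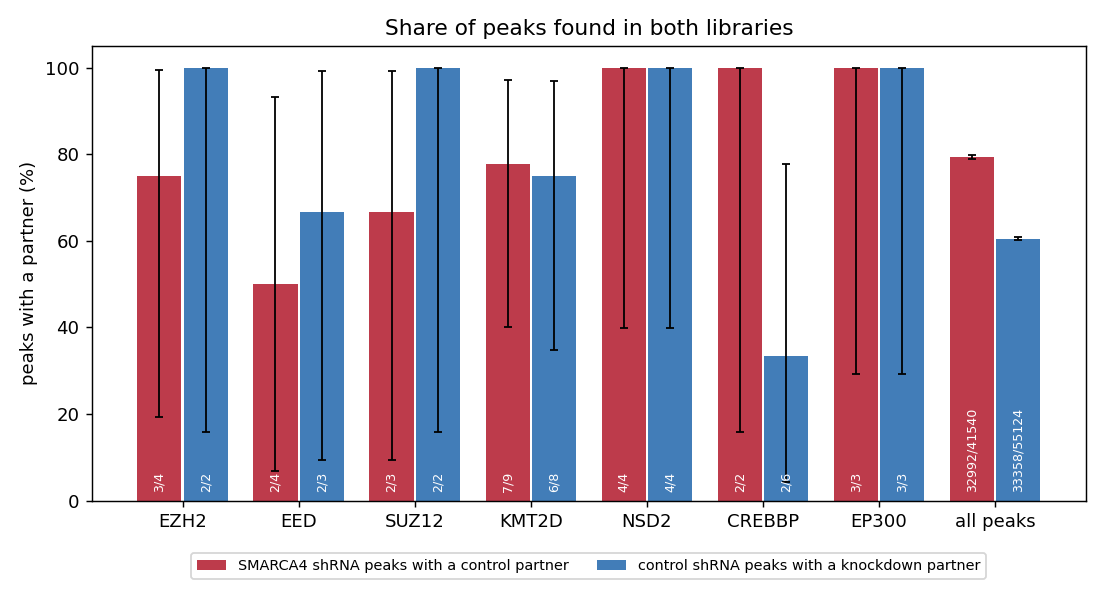
Share of peaks with a partner in the other library, in percent, for SMARCA4 shRNA peaks (red) and control shRNA peaks (blue) of each gene span and of all peaks. Bars start at 0, error bars are exact binomial 95% intervals, and the numbers in the bars are peaks with a partner and peaks in all; NSD2 and EP300 had partners for every peak, and CREBBP had a partner for 2 of 6 control peaks.

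At shared peaks the knockdown library had more summit reads in 17 of 21 pairs, equal reads in 1 and fewer in 3; over all 33358 pairs of the genome it had more in 59%. The pairs with fewer reads were the stronger SUZ12 pair, the CREBBP pair at the 3′ side and the last NSD2 pair. Summed over the 21 pairs there were 312 summit reads in the knockdown and 259 in the control library, a ratio of 1.20, and over all pairs the ratio was 1.10. Depth alone would give 1.34. After scaling by depth, 15 of 21 pairs were lower in the knockdown library, beside 70.4% of all pairs. The median log2 ratio of the 21 pairs was -0.10, with a range of -0.63 to 0.38, and that of all pairs was -0.25. A ratio more than 1.5-fold lower was seen in 2 pairs, at SUZ12 and NSD2, beside 26.5% of all pairs. A ratio more than 1.5-fold higher was seen in none of the 21, beside 4.71% of all pairs. Every one of the 21 pairs had a counting interval that includes 0.

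**Figure D3:**
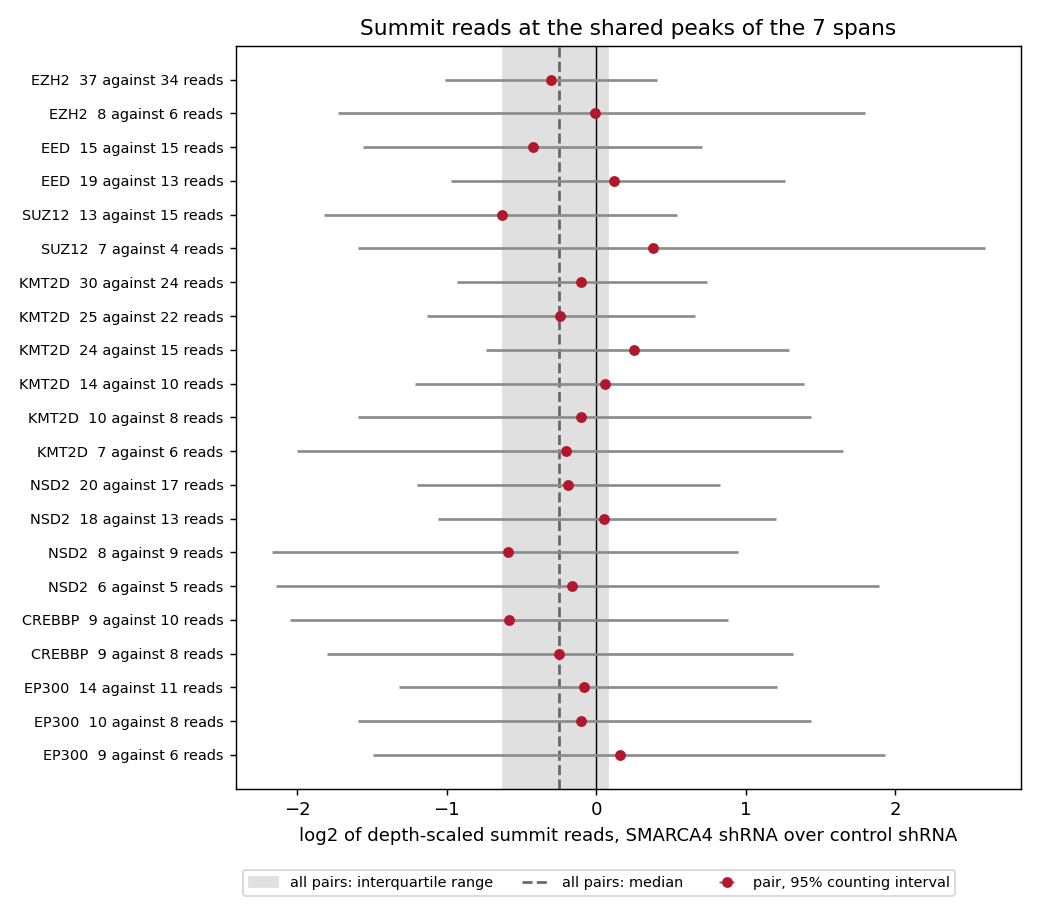
Depth-scaled log2 ratio of summit reads, SMARCA4 shRNA over control shRNA, for the 21 shared peaks, labelled with the gene and the reads of each library. Points are single pairs with exact 95% counting intervals, the grey band and dashed line are the interquartile range (-0.62 to 0.08) and median (-0.25) of all 33358 pairs; points lie between -0.63 and 0.38 and every interval includes 0.

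Reads over the wider neighbourhood, which include those of the peak itself, gave a second but not independent readout of the same sites. The caller's background at a peak, where it is above the lowest value of the library, was taken to reflect the reads in the surrounding 10 kb. That window is assumed, since the caller's parameters were not given. The read numbers were worked out from the background and the extension length, not counted. They could be compared for 17 of the 21 pairs. Neighbouring pairs at EED, EP300 and KMT2D share much of this window and are not independent counts. The 2 EED pairs, for example, had depth-scaled log2 ratios of 0.23 and 0.24 for the reads of the window. The knockdown had more such reads in 16 of the 17 (beside 86.0% of all pairs) and, after scaling by depth, in 10 of the 17 (beside 32.3% of all pairs), and the median ratio was 1.48, beside 1.29 over 27933 pairs of the genome; the read numbers of the libraries give 1.42. The main EZH2 site had 268 reads in the knockdown and 207 in the control library, the highest values of the 7 spans. The EED cluster had 156 in the knockdown and 94 in the control, a ratio of 1.66, and the stronger SUZ12 site had 47 in the knockdown and 48 in the control, a ratio of 0.979. At KMT2D the strongest site had 120 knockdown and 81 control reads. Scaled to these local reads, the 17 summit ratios had a median log2 of -0.10, beside -0.13 over the genome.

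**Figure D4:**
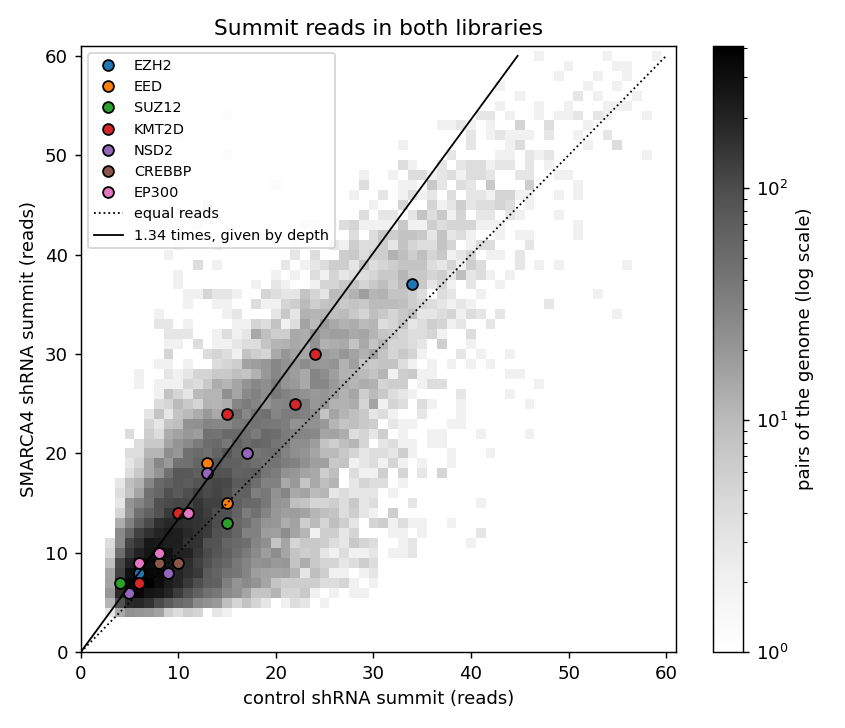
Summit reads of shared peaks in the SMARCA4 shRNA library (vertical axis) and the control shRNA library (horizontal axis), with the 21 pairs of the 7 spans in colour over the number of genome pairs at each combination (grey, log scale; 140 pairs above 60 reads are off the plot). The dotted line is equal reads and the solid line the 1.34 times given by depth; points with equal values lie on top of each other, and most coloured points lie between the lines or just above the solid one.

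The summits of the 21 pairs were a median of 22 bp apart, and those of all pairs 28 bp. The largest distance, 207 bp, was at the KMT2D site that the knockdown list divided into 3 peaks. The knockdown peak was wider in 8 pairs and narrower in 13, with a median difference of -16 bp, and the genome gave 47.5% wider and 51.9% narrower. Joining peaks less than 1 kb apart left 25 sites in the 7 spans, of which 19 (76.0%) were present in both libraries, 1 in the knockdown and 5 in the control only, beside 55.4% in both among 55262 sites of all chromosomes. The knockdown-only site was at EED, and the control-only sites were 3 at CREBBP, 1 at EED and 1 at KMT2D. Of the 19 shared sites, 5 held more peaks in the knockdown, 2 held more in the control and 12 held equal numbers. Over all 30603 shared sites, 7.17% held more peaks in the knockdown and 8.38% more in the control. The 5 sites lay at EZH2, EED, SUZ12 and, for 2 of them, KMT2D.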

How the data were processed

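ATAC-seq libraries of Z-138 cells, 1 with an shRNA against SMARCA4 and 1 with a control shRNA, were grouped by their genotype labels. Reads were made with bcl2fastq 2.17.1.14, and BWA, MACS2 and the build hg19 were used, per the submitters' processing notes; parameters, read shifting and the treatment of mitochondrial reads were not given in the sources used here. Each deposited list holds, per the file's own columns, the fold, −log10 p, −log10 q and a score per peak, called by the authors in each library separately. The fold was taken as the ratio of summit to background with 1 read added to each. From the deposited fold and −log10 p, the whole number of summit reads and the background of every peak were solved with a Poisson tail (Python 3.11.15, SciPy 1.17.1), which gave back the deposited −log10 p within 4.15e-05. On simulated peaks made with the same formulas, the summit reads of all 41540 knockdown and 55124 control peaks were recovered exactly. That could not show whether the deposited values follow these formulas. Summit reads and backgrounds were scaled by the lowest background, 0.322 reads in the knockdown and 0.24 in the control library. Chromosome Y was left out. Each control peak was paired with the knockdown peak sharing most bases. Intervals are exact at 95% and cover counting error only. Named were, in each span, the peaks of highest fold and width, the 6 unmatched peaks of highest fold per library, and the 4 pairs at each end of the ratio with at least 8 control reads; the remaining members are named too, chosen after their values were seen. The 7 genes, their spans and the motifs were chosen with earlier results of these data known. A list of further histone-modifier genes was not run, since no hg19 annotation was used here.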

Additional observations from a re-analysis of the deposited data

How the results depend on the processing

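No paired analysis was possible because each group has 1 library, and leaving out a replicate was not possible for the same reason. The share of knockdown peaks with a partner, 79.3%, became 58.6% with reciprocal overlap of 50% (65.0% over all knockdown peaks) and 93.1% when a control peak within 500 bp counted (84.4% over all); the cause was not tested. The share of control peaks, 75.0%, stayed between 60.7% and 88.9% under all alternatives, and it was 86.4% without CREBBP. Limiting both lists to q-values of at most 1e-05 left 22 knockdown and 18 control peaks, since fewer peaks enter. The CREBBP span then kept 4 control peaks, 2 of them with a partner. It kept the same numbers with a fold of at least 5 in both lists, and with the control list cut to the length of the knockdown list. Widening the spans by 50 kb on each side gave 55 knockdown and 51 control peaks, since more sequence is searched. The median log2 ratio of shared peaks, -0.10, reversed to 0.15 when the median of all pairs was set to 0, which adds 0.25 to every pair by construction, and it stayed between -0.18 and -0.10 under the other alternatives. Of 248 comparisons on single genes or pairs, 58 moved (a count by more than 1.5 times, a ratio across 0 or across 1.5-fold). The pairs past 1.5-fold lower, at SUZ12 and NSD2, kept their sign, but adding 0.25 could not have turned either. Only the SUZ12 pair also had a ratio scaled to the surrounding 10 kb, -0.10, which is not past 1.5-fold. The SUZ12 and NSD2 pairs past 1.5-fold lower stood at -0.38 and -0.35 after that centring, and the weaker SUZ12 pair, at 0.38, stood at 0.63, past 1.5-fold higher. Joining peaks to sites was chosen after seeing the data. Summits of 4 to 37 reads limit all ratios: the narrowest interval of a pair, at EZH2, spans -1.01 to 0.41.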
